A study of Mus musculus with 6 samples.

Results

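The hemicentins, fibulins and elastic fibre proteins described here are 10 secreted matrix proteins, encoded by *Hmcn1*, *Hmcn2*, *Fbln1*, *Fbln2*, *Fbln5*, *Efemp1*, *Efemp2*, *Eln*, *Fbn1* and *Emilin1*. The genes were found by symbol among 20327 genes, and they had been chosen by a rule that used the difference between IL-11+ and IL-11- fibroblasts in the same 6 libraries. Their levels and fold changes in that comparison are therefore given as a description without p-values, and the calls that the fit over all genes gave them support nothing. All 10 had a row in every library, and all 10 were among the 9334 genes that reached 10 tags in 3 or more libraries. Of the 10, 9 reached 10 tags in all 6 libraries, while *Hmcn1* did so in 3.

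The libraries were made to compare the gene expression of IL-11-producing fibroblasts, which appear in the inflamed colon, with that of other stromal cells of the same tissue. Both groups came from *Il11-Egfp* reporter mice on the C57BL/6 strain, in which a bacterial artificial chromosome places EGFP under the control of *Il11*, so that EGFP stands for IL-11 in a single transgenic line. The mice were 9 to 15 weeks old, drank 1.5% dextran sulfate sodium (DSS) for 5 days and then plain water, and the colon was digested on day 7. Cells negative for CD45, CD31, EpCAM and Ter119, which mark leukocytes, endothelium, epithelium and erythroid cells, were sorted into EGFP+ (IL-11+ fibroblasts, n = 3) and EGFP- (IL-11- fibroblasts, n = 3). Both groups thus carried the reporter and had received DSS, and untreated mice were not compared here.

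RNA was read by 5′Tag-seq, which counts tags from the 5′ side of polyA transcripts. The IL-11- libraries held 1057170, 1078179 and 1169817 tags, and the IL-11+ libraries held 1046538, 1022851 and 1049048. Levels are given as normalized CPM, the tags of a gene per 1000000 tags of the tested genes after scaling the libraries to each other, and 3 tags, taken as the limit of detection, correspond to 2.46 to 3.18 normalized CPM. *Il11* had 28, 51 and 89 tags in the IL-11- libraries and 1357, 732 and 2658 in the IL-11+ libraries, so every library lay on the side that its label gives.

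Elastic fibres consist of a core of crosslinked elastin laid down on a scaffold of fibrillin microfibrils, and they let tissues recoil after stretch. Fibulins are calcium-binding glycoproteins that bridge elastin, microfibrils, basement membranes and the enzymes of crosslinking, and hemicentins are giant relatives of the fibulins with long arrays of immunoglobulin domains that tether cells and basement membranes to each other. In the intestine, elastic fibres lie in the submucosa, around the muscle layers and in vessel walls, and fibroblasts and smooth muscle cells are known to produce them.

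Among the 10 genes, *Hmcn2* stood far lower in the IL-11+ libraries, *Fbln1* was moderately lower, and *Eln* and *Emilin1* were moderately higher. By the rule applied to every tested gene (a Benjamini-Hochberg adjusted p under 0.05 in the quasi-likelihood test of edgeR, and a fold change over 2), 1 of the 10, *Hmcn2*, was called lower and 0 were called higher, where the rule called 6.37% of the tested genes lower and 3.44% higher. For 5 of the 10 the normalized levels of both groups were fully separated, with the IL-11+ libraries above for 3 and below for 2, and over all tested genes such non-overlapping groups made up 14.5% above and 16.7% below. With the adjusted p alone, *Hmcn2* and *Fbln1* passed as lower and *Eln* and *Emilin1* as higher, where 8.7% and 6.84% of the tested genes passed in these directions. The median log2 fold change of the 10 genes was -0.30, against -0.01 for all tested genes. Because the genes had been chosen with values of this comparison, nothing is read from these counts.

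**Figure D1:**
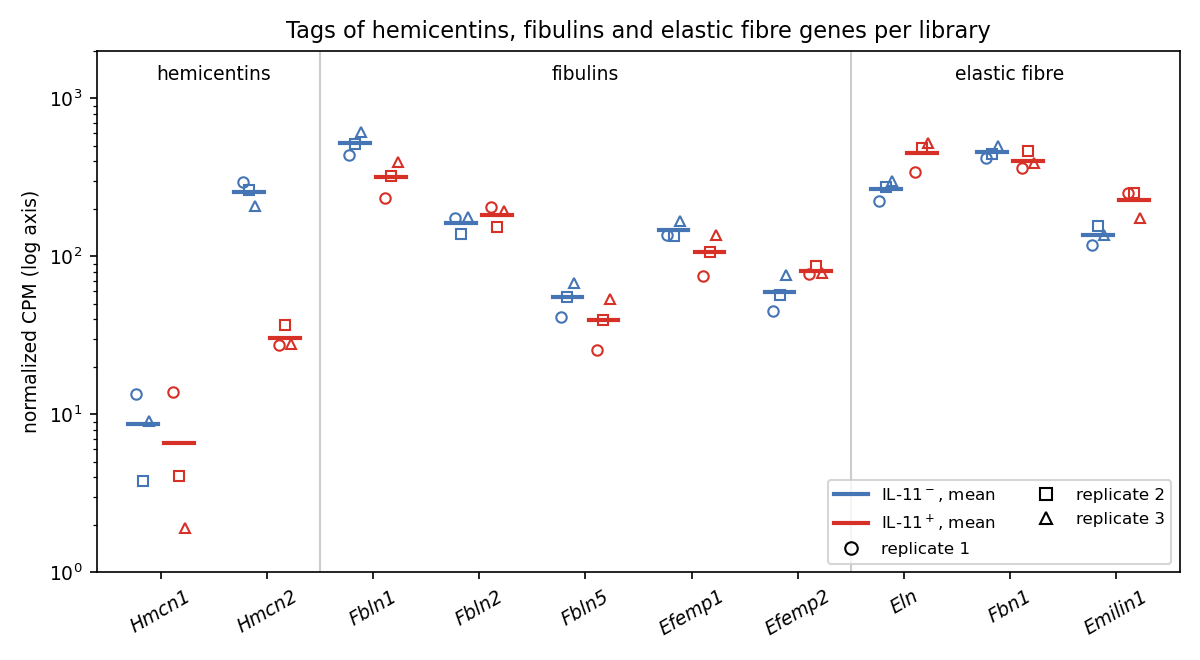
Normalized CPM on a log axis of the 10 genes in each library, with IL-11- fibroblasts in blue and IL-11+ fibroblasts in red. Symbols mark the replicate (circle 1, square 2, triangle 3) and bars the mean of 3 libraries. *Hmcn2* lies between 208 and 297 in the IL-11- libraries and between 27.6 and 36.6 in the IL-11+ libraries.

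*Hmcn2* encodes one of the hemicentins and lies at chr2:31314415-31460738 on the plus strand, with 98 exons in its longest coding transcript (GRCm38). It had 311, 281 and 253 tags in the IL-11- libraries and 26, 36 and 29 in the IL-11+ libraries. Every IL-11+ library was thus far below every IL-11- library, and the spread within each group was small beside the gap. In normalized CPM the level went from 256.5 ± 45.2 to 30.6 ± 5.17 (SD, n = 3 libraries each), a log2 fold change of -3.06 (SE 0.208), or 8.35-fold lower. Counted from the lowest log2 fold change, it ranked 86 of the 9334 tested genes. Within each pair of same-numbered libraries, which were taken as coming from the same mouse, the IL-11+ level was 0.0928, 0.138 and 0.133 times the IL-11- level.

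*Hmcn1*, the other hemicentin (chr1:150562524-150993435, minus strand, 107 exons), was close to the limit of detection. It had 14, 4 and 11 tags in the IL-11- libraries and 13, 4 and 2 in the IL-11+ libraries. The groups overlapped, and the mean levels, 8.72 ± 4.81 normalized CPM for IL-11- and 6.58 ± 6.32 for IL-11+ fibroblasts, differed by less than the spread between replicates. The log2 fold change was -0.43 with an SE of 0.599, and on the same 9334 genes it was -1.52 without IL-11+ replicate 1, while it was 0.020 without IL-11+ replicate 3, so the depth did not show a direction for *Hmcn1*. *Hmcn2* tags outnumbered *Hmcn1* tags 22.2, 70.2 and 23-fold in the IL-11- libraries and 2, 9 and 14.5-fold in the IL-11+ libraries. The value of 14.5 rests on 2 *Hmcn1* tags, under the limit of 3, and is no exact fold. Those of 70.2 and 9 rest on 4. The transcripts of the hemicentins are of similar length (17.9 kb for *Hmcn1* and 15.6 kb for *Hmcn2*), and none of the 50-nt windows in the first 300 nt of either was found in transcripts of another gene.

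Cells other than fibroblasts can pass a gate set by what cells lack, and markers of several such types were lower in the IL-11+ libraries together with *Hmcn2*. In RNA from sorted populations, fewer cells of a type and less RNA per cell cannot be told apart. The summed level of 10 smooth muscle genes, of which *Myh11* was the most abundant, was 2769, 3413 and 4286 normalized CPM in the IL-11- libraries and 141, 207 and 394 in the IL-11+ libraries, 14.1-fold lower on average. Of the 10, 9 were called lower, where 6.37% of all tested genes were called lower and 3.44% higher. *Cnn1* was at 0 in IL-11+ replicate 1. The 9 pericyte genes, led by *Rgs5*, summed to 2711, 2374 and 2178 normalized CPM against 1072, 1008 and 876, which is 2.46-fold lower. Of the 8 tested, 5 were called lower (6.37% of all tested genes). *Rgs5* alone, at 1863, 1602 and 1478 against 197.1, 176.7 and 196.5, made up most of this sum in the IL-11- libraries. *Notch3* was at 0 in IL-11+ replicate 2, whereas the pericyte channel genes *Kcnj8* and *Abcc9* were not called, with log2 fold changes of 0.71 and 0.66 (chosen after their values were seen). Of the genes called lower in these lists, *Cnn1*, *Notch3* and *Ndufa4l2* (the last likewise chosen) reached 10 tags only in the IL-11- libraries. Their entry into the tested genes thus favours a call of lower.

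The part of these cells in the level of *Hmcn2* was not tested. The 6 mesothelial genes, led by *Wt1*, summed to 15.3, 6.6 and 23.8 normalized CPM against 1.06, 0 and 1.91, so their level in IL-11+ libraries was under the limit of detection. Of the types that the gate removes, 7 endothelial genes, led by *Tek*, summed to 31.1 to 55.8 normalized CPM (IL-11-) and 15.2 to 24.4 (IL-11+) with 1 tag of *Pecam1* in all 6 libraries. This sum was 2.37-fold lower without overlap, and *Tek* was called lower (log2 fold change -1.58, SE 0.392, edgeR's quasi-likelihood adjusted p = 0.0085). *Tek* alone, at 31.5, 22.6 and 34.5 normalized CPM against 18.0, 7.11 and 4.77, made up most of the sum in the IL-11- libraries. It was the only tested gene of this list. The 5 epithelial genes, led by *Krt8*, summed to 0.942 to 11.5 and 2.12 to 3.81, and 8 leukocyte genes, led by *Cd68*, to 14.8 to 22.6 and 15.2 to 31.8. Erythroid genes, led by *Hbb-bs*, varied between libraries, with sums of 90.7, 0 and 306 against 19.1, 2.03 and 19.1.

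The summed level of fibroblast genes was higher in each IL-11+ library. The 10 genes of this list, led by *Dcn*, summed to 22830, 22910 and 25270 normalized CPM in the IL-11- libraries and 43100, 34860 and 30930 in the IL-11+ libraries. Of the 10, 2 were called higher (3.44% of all tested genes). *Dcn* and *Col3a1* made up most of this sum, and not all of the list rose, since *Lum*, at 1024, 1221 and 1768 against 722, 916 and 946, and *Vim* had log2 fold changes of -0.64 (SE 0.201) and -0.27 (SE 0.185) and were not called (*Col3a1*, *Lum* and *Vim* were chosen after their values were seen). The 8 genes of adventitial fibroblasts, which surround vessels and are rich in matrix, were led by *Dpt* and summed to 5016, 5418 and 5932 against 2639, 3419 and 3264. Of the 7 tested, 4 were called lower (6.37% of all tested genes).

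The fibulins with a basement membrane role come next. *Fbln1* (chr15:85205949-85286535, plus strand), whose product binds fibronectin, laminin and nidogen and stabilizes basement membranes and vessel walls, had 440, 514 and 614 normalized CPM in the IL-11- libraries and 235, 324 and 397 in the IL-11+ libraries. All IL-11+ libraries were below all IL-11- libraries, by a smaller step than for *Hmcn2*. The means were 522.6 ± 87.4 and 318.6 ± 80.8, a log2 fold change of -0.71 (SE 0.196), or 1.64-fold lower, and the ratios within the 3 pairs were 0.535, 0.631 and 0.646. The adventitial, smooth muscle and pericyte sums were lower in the same libraries, and their part in the level of *Fbln1* was not tested. *Fbln2* (chr6:91212455-91272540, plus strand), which binds many of the same partners, overlapped between the groups, at 138 to 177 normalized CPM (IL-11-) and 154 to 205 (IL-11+). Its log2 fold change was 0.17 (SE 0.173), and 0.17 (SE 0.151) with the replicate as a block, while the pair ratios of 1.17, 1.11 and 1.09 were all above 1.

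The levels of both can be compared inside a library, where the scaling between libraries does not enter. The tags of *Fbln1* over those of *Fbln2* were 2.52, 3.71 and 3.46 in the IL-11- libraries and 1.15, 2.1 and 2.06 in the IL-11+ libraries. The tags of *Hmcn2* over those of *Fbln2* were 1.7, 1.91 and 1.17 against 0.135, 0.237 and 0.144. Neither ratio overlapped between the groups, and *Hmcn2* changed from more tags than *Fbln2* in every IL-11- library to fewer in every IL-11+ library. These ratios and those below were chosen after the values were seen.

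The other fibulins act in elastic fibre assembly. *Fbln5* (chr12:101746565-101819055, minus strand) guides tropoelastin onto microfibrils and is bound by integrins, and *Efemp2* (chr19:5473954-5482517, plus strand), also called fibulin-4, binds lysyl oxidase and elastin and is required for elastic fibres. *Efemp1* (chr11:28853204-28926743, plus strand), also called fibulin-3, is a close relative found in loose connective tissue and basement membranes. *Efemp2* was at 44.9, 56.5 and 76.4 normalized CPM in the IL-11- libraries and 77.4, 86.3 and 78.2 in the IL-11+ libraries. The groups were separated only narrowly, since IL-11- replicate 3 almost reached the lowest IL-11+ library, and the log2 fold change was 0.44 (SE 0.207). An annotated gene, *Mus81*, overlaps *Efemp2* on the opposite strand, as other annotated genes do for *Hmcn1*, *Eln* and *Fbn1*, and the authors mapped tags in 1 orientation.

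*Fbln5* and *Efemp1* overlapped between the groups. *Fbln5* ranged from 41.1 to 68.2 normalized CPM among IL-11- and from 25.4 to 53.4 among IL-11+ libraries, with a log2 fold change of -0.47 (SE 0.266). *Efemp1* ranged from 135 to 167 and from 75.3 to 136, with a log2 fold change of -0.46 (SE 0.201). In each of the 3 pairs, however, both were lower in the IL-11+ library, at 0.62, 0.712 and 0.784 times the IL-11- level for *Fbln5* and 0.551, 0.791 and 0.818 times for *Efemp1*. With *Efemp2* as the reference inside each library, the tags of *Efemp1* were 3.04, 2.38 and 2.18 times as many in the IL-11- libraries and 0.973, 1.24 and 1.74 times as many in the IL-11+ libraries, and those of *Fbln5* were 0.915, 0.983 and 0.893 times as many against 0.329, 0.459 and 0.683. Both ratios were lower in every IL-11+ library than in any IL-11- library.

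*Eln* encodes tropoelastin, the soluble precursor of the elastic core (chr5:134702593-134747323, minus strand, 37 exons). It was at 223, 274 and 299 normalized CPM in the IL-11- libraries and at 342, 483 and 520 in the IL-11+ libraries. Each IL-11+ library exceeded each IL-11- library, with the smallest step between IL-11- replicate 3 and IL-11+ replicate 1. The means of 265.2 ± 39.0 and 448.5 ± 93.7 gave a log2 fold change of 0.76 (SE 0.186), or 1.69-fold higher, and the ratios within the pairs were 1.54, 1.76 and 1.74. *Eln* was lowest in replicate 1 and highest in replicate 3 in both groups, and the same held for *Fbln1* and *Fbln5*, so these genes varied alike across the same-numbered libraries of both groups, a pattern noticed after the values were seen. The summed fibroblast genes were also higher in the IL-11+ libraries, and their part in the level of *Eln* was not tested.

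*Fbn1* encodes fibrillin-1, the backbone of microfibrils (chr2:125300594-125507993, minus strand), and *Emilin1* (chr5:30913402-30921277, plus strand) encodes a glycoprotein at the interface of elastin and microfibrils that also limits the maturation of TGF-β. *Fbn1* overlapped between the groups, at 417 to 501 normalized CPM (IL-11-) and 362 to 461 (IL-11+), and its log2 fold change of -0.17 (SE 0.165) was close to its error. *Emilin1* was at 117, 154 and 136 normalized CPM in the IL-11- libraries and at 250, 253 and 175 in the IL-11+ libraries. Here too the groups were separated, with the IL-11+ libraries above and IL-11+ replicate 3 the closest to the others, and the log2 fold change was 0.73 (SE 0.184), or 1.66-fold higher. The pair ratios of *Emilin1* were 2.13, 1.64 and 1.29.

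Relative to *Fbn1* in the same library, *Eln* had 0.533, 0.615 and 0.597 times as many tags in the IL-11- libraries and 0.944, 1.05 and 1.34 times as many in the IL-11+ libraries. *Emilin1* had 0.282, 0.347 and 0.271 times as many tags as *Fbn1* against 0.69, 0.548 and 0.451 times. Both genes thus gave more tags relative to *Fbn1* in every IL-11+ library than in any IL-11- library. The tags of *Eln* over those of *Fbln5* were 5.42, 4.93 and 4.39 in the IL-11- libraries and 13.5, 12.2 and 9.73 in the IL-11+ libraries. Against *Fbln1*, *Eln* went from 0.505, 0.534 and 0.487 to 1.46, 1.49 and 1.31, so that *Fbln1* gave more tags than *Eln* in the IL-11- libraries and *Eln* more than *Fbln1* in the IL-11+ libraries.

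**Figure D2:**
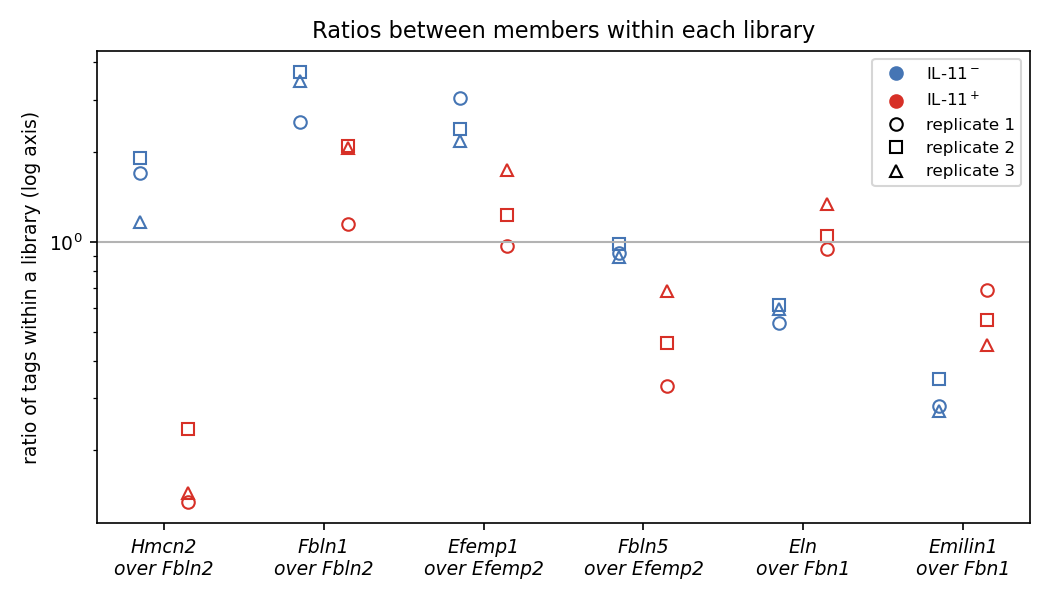
Tags of one gene over tags of another in the same library, on a log axis, for 6 pairs of genes, with IL-11- fibroblasts in blue, IL-11+ fibroblasts in red and a symbol for each replicate. No pair overlaps between the groups. *Hmcn2* over *Fbln2* lies at 1.17 to 1.91 in the IL-11- libraries and 0.135 to 0.237 in the IL-11+ libraries, and *Eln* over *Fbn1* at 0.533 to 0.615 and 0.944 to 1.34.

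Summed over the 10 genes, the level was 1905, 2042 and 2255 normalized CPM in the IL-11- libraries and 1614, 1948 and 1968 in the IL-11+ libraries. The groups overlapped, while within each pair the sum was lower in the IL-11+ library. The composition of this sum differed more than its size. *Hmcn2* made up 12.6% of the tags of the 10 genes on average in IL-11- fibroblasts and 1.66% in their IL-11+ counterparts, *Fbln1* 25.2% and 17.1%, *Eln* 12.8% and 24.1%, *Emilin1* 6.58% and 12.4%, and *Fbn1* 22.0% and 21.9%.

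To order the genes by level, normalized CPM was divided by the length of the longest annotated coding transcript. Tags from the 5′ side need not scale with length, and the order of normalized CPM without length differed, with *Hmcn2* at rank 4 of 10 in IL-11- fibroblasts in place of rank 8 per kb. Per kb, the order in IL-11- fibroblasts was *Fbln1* (142.8 ± 23.9 normalized CPM per kb), *Efemp1* (71.7 ± 8.83), *Eln* (68.8 ± 10.1), *Fbn1* (38.0 ± 3.55), *Emilin1* (35.2 ± 4.82), *Fbln2* (34.2 ± 4.54), *Efemp2* (22.5 ± 6.04), *Hmcn2* (16.4 ± 2.89), *Fbln5* (9.42 ± 2.33) and *Hmcn1* (0.487 ± 0.269). Neighbours were separated in all libraries for *Fbln1* over *Efemp1*, *Eln* over *Fbn1*, *Hmcn2* over *Fbln5* and *Fbln5* over *Hmcn1*, and the other neighbours overlapped. In IL-11+ fibroblasts the order per kb was *Eln* (116.4 ± 24.3), *Fbln1* (87.1 ± 22.1), *Emilin1* (58.6 ± 11.5), *Efemp1* (52.1 ± 15.01), *Fbln2* (38.4 ± 5.49), *Fbn1* (33.7 ± 4.28), *Efemp2* (30.6 ± 1.87), *Fbln5* (6.77 ± 2.40), *Hmcn2* (1.95 ± 0.330) and *Hmcn1* (0.368 ± 0.353). From *Eln* down to *Efemp2* each overlapped the next, and *Efemp2* over *Fbln5*, *Fbln5* over *Hmcn2* and *Hmcn2* over *Hmcn1* were separated. Per kb, *Hmcn2* was thus above *Fbln5* in the first group and below it in the second. Without length, their levels in the IL-11+ libraries overlapped, at 27.6 to 36.6 normalized CPM for *Hmcn2* and 25.4 to 53.4 for *Fbln5*.

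Genes whose levels over the 6 libraries were most like those of *Hmcn2*, by Pearson's r of log2(normalized CPM + 1) among 5054 genes, were *Cspg4* (r = 0.998), *P2ry14* (r = 0.997) and *AI607873* (r = 0.997). *Cspg4* is itself in the pericyte list. Those most like *Fbln1* were *Casp4* (r = 0.999), *Mcoln2* (r = 0.995) and *Has1* (r = 0.994), and those most like *Fbn1*, the most abundant of the elastic fibre genes by normalized CPM over all libraries, were *S100a16* (r = 0.968), *Rsu1* (r = 0.955) and *Idh3b* (r = 0.955). Such an r over 6 libraries includes the difference between the groups and is given as a description. The log2 fold changes were -2.32, -2.34 and -2.81 for the genes beside *Hmcn2*, -0.67, -1.25 and -1.81 for those beside *Fbln1*, and -0.22, -0.23 and -0.18 for those beside *Fbn1*.

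The microfibril on which elastin is deposited has many further components, several of which fell. This list and those that follow were chosen with earlier results of these data known, so their counts are a description, and the adjusted p of a listed gene comes from the fit over all genes and is no independent support for its direction. Of 16 tested genes of the microfibril list, 5 were called lower and 0 higher by the quasi-likelihood test of edgeR, with Benjamini-Hochberg adjustment over all tested genes, of which 6.37% were called lower and 3.44% higher. The 5 became 2 where 10 tags were needed in all 6 libraries, a filter under which fewer genes were tested. *Adamtsl3*, *Adamtsl1* and *Thsd4*, each under 10 tags in IL-11+ replicate 1, were then not tested, and *Mfap5* and *Ltbp1* were still called lower. With an unadjusted p under 0.05, 0 were higher and 8 lower, against 12.2% and 14.5% of all tested genes, and DESeq2 called 0 higher and 5 lower, against 3.04% and 5.17%. The median log2 fold change was -0.70, against -0.01 for all tested genes. *Mfap5*, a microfibril-associated glycoprotein, had 132, 169 and 177 normalized CPM in the IL-11- libraries and 30.7, 33.5 and 48.6 in the IL-11+ libraries. These were far apart in every library, and *Mfap5* fell with a log2 fold change of -2.07 (SE 0.209, edgeR's quasi-likelihood adjusted p = 1.25e-06).

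*Adamtsl3*, *Adamtsl1* and *Thsd4* encode ADAMTS-like glycoproteins without protease activity, several of which bind fibrillin. Their log2 fold changes were -2.01 (SE 0.289), -1.71 (SE 0.302) and -2.56 (SE 0.384), with Benjamini-Hochberg adjusted p of 6.62e-05, 0.000527 and 0.000107 in edgeR's quasi-likelihood test, and all 3 genes were lower in every IL-11+ library. *Thsd4* was down to 2, 6 and 8 tags in the IL-11+ libraries, from 40, 32 and 35. It thus entered the tested genes only through the IL-11- libraries, the group in which it is high, which favours a call of lower; without a filter on low counts its log2 fold change was -2.52 and 5 microfibril genes were again called lower. *Ltbp1*, which anchors latent TGF-β to microfibrils, had 157, 135 and 133 normalized CPM in the IL-11- libraries against 68.9, 42.6 and 70.6. It fell without overlap (log2 fold change -1.22, SE 0.198, edgeR's quasi-likelihood adjusted p = 0.00025). *Mfap4*, the most abundant gene of the list, was at 285, 362 and 184 normalized CPM against 188, 381 and 98.2, with overlap and a log2 fold change of -0.32 (SE 0.327, edgeR's quasi-likelihood adjusted p = 0.592). Its value turned to 0.044 without IL-11+ replicate 3, was -0.95 without IL-11+ replicate 2 (edgeR adjusted p = 0.0435) and was -0.44 with the replicate as a block (edgeR adjusted p = 0.0421), in a range of 0.0421 to 0.953 over the other settings, and it stayed under the fold change of 2 in all of them. *Mfap1a* and *Mfap1b*, which are in the list by name, encode splicing factors and were not called (chosen after their values were seen). The smooth muscle, pericyte and adventitial sums were lower in the same libraries as these microfibril genes, and their part was not tested.

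Of the relatives of the 10 genes, 3 of 5 had a row and 2 were tested. *Fbln7*, a short fibulin that binds cells and heparin, had 13, 25 and 11 tags in the IL-11- libraries and 4, 3 and 4 in the IL-11+ libraries. It was low throughout and lower in each IL-11+ library, and it was called lower (log2 fold change -1.97, SE 0.507, edgeR's quasi-likelihood adjusted p = 0.0112). Without IL-11- replicate 2 the log2 fold change was -1.49 and the edgeR adjusted p was 0.0971 on the same 9334 genes, in a range of 0.00352 to 0.0971 over the other settings, so the call rests on that library. *Fbln7* reached 10 tags only in the IL-11- libraries, so its entry into the tested genes also favours a call of lower; without a filter on low counts the log2 fold change was -1.94 and 1 relative was again called lower. *Emilin2*, a relative of *Emilin1*, was not called (log2 fold change -0.46, SE 0.405, edgeR's quasi-likelihood adjusted p = 0.523), and on the same 9334 genes its value ran from -1.03 without IL-11+ replicate 3 to -0.00075 without IL-11- replicate 3. No relative was called higher, at an unadjusted p under 0.05 or by DESeq2 either.

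Of the enzymes that crosslink elastin, *Loxl2* and *Lox* rose. Lysyl oxidases, copper-dependent amine oxidases, turn lysines of elastin and collagen into aldehydes that then form crosslinks, and *Atp7a* encodes the pump that supplies their copper. Of 6 genes of this list, 2 were called higher and 0 lower (3.44% and 6.37% of all tested genes), none was lower at an unadjusted p under 0.05, where 4 were higher (12.2% higher and 14.5% lower over all tested genes), and DESeq2 also called 2 higher and 0 lower (3.04% and 5.17%). The median log2 fold change was 0.70. *Loxl2* was at 266, 334 and 260 normalized CPM in the IL-11- libraries and at 736, 661 and 484 in the IL-11+ libraries. It rose without overlap between the groups (log2 fold change 1.13, SE 0.186, edgeR's quasi-likelihood adjusted p = 0.000281).

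Over all libraries together *Lox* was the most abundant of these enzymes, although *Loxl2* was above it in IL-11- replicate 2 and IL-11+ replicate 3. *Lox* was at 484, 267 and 264 normalized CPM in the IL-11- libraries and at 929, 694 and 473 in the IL-11+ libraries. IL-11- replicate 1 was above IL-11+ replicate 3, so the groups overlapped, while within each pair the IL-11+ library was higher. The log2 fold change of *Lox* was 1.05 (SE 0.248, edgeR's quasi-likelihood adjusted p = 0.00614). It was 0.89 without IL-11- replicate 2, 0.88 without IL-11- replicate 3, 0.80 without IL-11+ replicate 1 and 0.95 with scaling by library size alone, and in each of these *Lox* was no longer called. The fibroblast sum was higher and the smooth muscle and pericyte sums were lower in the same libraries, and their part in the levels of the crosslinking genes was not tested.

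Of the proteases that can cleave elastin and the cathepsin inhibitor listed with them, 5 were tested, and 1 was called higher and 0 lower (3.44% and 6.37% of all tested genes). The median log2 fold change was 0.66, against -0.01 for all tested genes. With an unadjusted p under 0.05, 4 were higher and 1 lower (12.2% and 14.5% of all tested genes), and DESeq2 called 1 higher and 0 lower (3.04% and 5.17%). *Mmp2*, the gelatinase of stromal cells, was at 1071, 907 and 798 normalized CPM in the IL-11- libraries and at 2676, 2332 and 2138 in the IL-11+ libraries. It rose in every pair by more than the spread within groups (log2 fold change 1.36, SE 0.178, edgeR's quasi-likelihood adjusted p = 2.33e-05). *Mmp14*, a membrane-bound activator of the *Mmp2* product and the most abundant gene of the list, had a log2 fold change of 0.91 (SE 0.187, edgeR's quasi-likelihood adjusted p = 0.00195), under the fold change of 2 that a call needs. *Cst3*, the cathepsin inhibitor (chosen after its values were seen), was the gene with the lower level, at 920, 718 and 675 normalized CPM in the IL-11- libraries and 382, 466 and 354 in the IL-11+ libraries. Its groups did not overlap, and its log2 fold change of -0.94 (SE 0.178, edgeR's quasi-likelihood adjusted p = 0.000971) was likewise under the fold change of 2. The part of the higher fibroblast sum and of the lower smooth muscle and pericyte sums in the levels of *Mmp2* and this list was not tested either.

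Basement membranes and the large proteoglycans of the interstitial matrix hold the known binding partners of fibulins and hemicentins. Of 19 genes of this list, all tested, 6 were called higher and 1 lower (3.44% and 6.37% of all tested genes), and the median log2 fold change was 0.57. *Col18a1*, a basement membrane collagen, was at 377, 321 and 209 normalized CPM in the IL-11- libraries and at 1448, 1367 and 748 in the IL-11+ libraries, and *Vcan*, a proteoglycan that binds fibulins, was at 350, 447 and 399 against 966, 1168 and 868. Neither overlapped between the groups, and they rose with log2 fold changes of 1.98 (SE 0.246) and 1.33 (SE 0.175), at Benjamini-Hochberg adjusted p of 1.45e-05 and 2.65e-05 in edgeR's quasi-likelihood test. *Col4a1* and *Col4a2*, the chains of the common type IV collagen and the first of them the most abundant gene of the list, had log2 fold changes of 1.182 (SE 0.230) and 1.16 (SE 0.202), with edgeR's quasi-likelihood adjusted p of 0.0013 and 0.000476. Without IL-11+ replicate 1 these were 0.96 and 0.98, and neither was called.

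The laminin β chains of this list went opposite ways. *Lamb1* was at 619, 615 and 457 normalized CPM in the IL-11- libraries against 1167, 1210 and 1010, and *Lamb2* was at 86.9, 62.2 and 96.1 against 32.9, 26.4 and 34.3. All IL-11+ libraries were above for *Lamb1* and below for *Lamb2*, and the edgeR quasi-likelihood adjusted p were 0.000466 and 0.000253 with log2 fold changes of 1.003 (SE 0.175) and -1.39 (SE 0.227). *Lamb1* stood so close to the fold change of 2 that its call was lost without IL-11- replicate 3 (0.85), IL-11+ replicate 1 (0.99) or IL-11+ replicate 2 (0.96), and with scaling by library size alone (0.92), iterative scaling (0.99) or the filter of 10 tags in all 6 libraries (0.96). The sixth gene called higher, *Papln*, lay outside the rule for names and was chosen after its values were seen, with 5, 7 and 11 tags against 34, 26 and 14. The other fibulin ligands *Nid1* and *Fn1*, likewise chosen after their values were seen, had log2 fold changes of 0.09 (SE 0.175) and 0.06 (SE 0.170) and were not called. The smooth muscle and pericyte sums were lower and the fibroblast sum higher in the same libraries, and their part in the levels of this list was not tested.

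**Figure D3:**
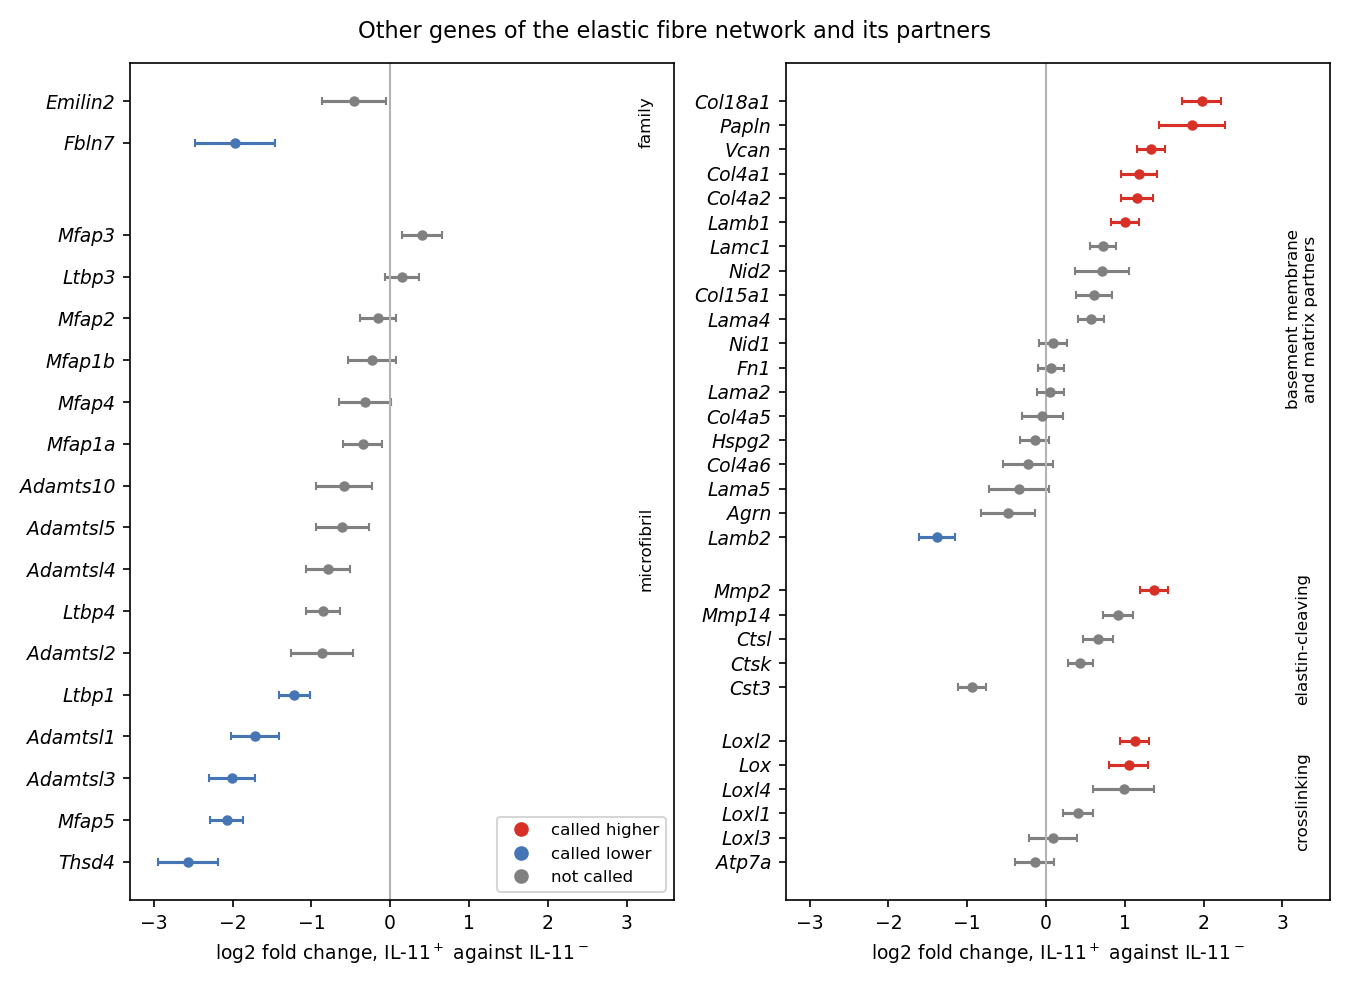
Log2 fold change (IL-11+ against IL-11- fibroblasts) with its SE as a bar for each tested gene of the microfibril, family, crosslinking, elastin-cleaving, and basement membrane and matrix lists, where red marks genes called higher, blue genes called lower and gray genes not called. Of the microfibril list, 5 of 16 are called lower and 0 higher, while 2 of 6 crosslinking genes and 6 of 19 basement membrane and matrix genes are called higher.

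For the DNA at the start of these genes, 9 of the 10 were matched by symbol in the RefSeq promoter table (GRCm38.p6), and *Eln* was not matched. The 250 bases before each start site were searched on both strands for TATAAA (the TATA box), GGGCGG (the core of a GC box), the AP-1 motif TGANTCA, the STAT motif TTCNNNGAA, the E box CACGTG, the CArG box and the NF-kB motif, which are present in 12.4%, 32.7%, 6.75%, 7.02%, 6.02%, 1.47% and 7.25% of 32851 promoters of the same length. In at least 1 of their windows, GGGCGG was present in 6 of the 9 genes, TGANTCA in 2 (*Hmcn2* and *Efemp1*), the NF-kB motif in 2 (*Hmcn2* and *Fbln1*) and CACGTG in 1 (*Fbln1*), and TATAAA, the STAT motif TTCNNNGAA and the CArG box were in none of these windows. The 9 genes have 13 windows, so these counts per gene are not comparable with the percentages, which are per promoter. The promoters of *Hmcn2* and *Fbln1*, whose IL-11+ libraries all lay below the IL-11- libraries, and of *Hmcn1*, the relative of *Hmcn2* that was near the limit of detection, are printed 5′ to 3′ with matches in capitals. The *Hmcn2* window (chr2:31314082-31314331, plus strand) has a GC content of 72.4%, against a median of 52.4%, and holds TGANTCA 101 bases and the NF-kB motif 25 bases before the start. The *Hmcn1* window (chr1:150993436-150993685, minus strand) holds none of the 7 motifs, and the *Fbln1* window (chr15:85205699-85205948, plus strand, the first of 2 start sites) holds CACGTG 81 bases before the start. The NF-kB motif and GGGCGG counted for *Fbln1* lie in its other window (chr15:85205758-85206007), which is not printed, 29 and 11 bases before that start. A match describes the letters of these windows and is not a measured binding site.
Hmcn2: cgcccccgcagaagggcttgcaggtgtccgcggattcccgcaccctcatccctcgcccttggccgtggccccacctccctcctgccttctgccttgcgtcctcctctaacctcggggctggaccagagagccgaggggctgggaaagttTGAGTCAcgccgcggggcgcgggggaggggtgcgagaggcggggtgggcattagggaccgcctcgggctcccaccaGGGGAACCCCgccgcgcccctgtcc
Hmcn1: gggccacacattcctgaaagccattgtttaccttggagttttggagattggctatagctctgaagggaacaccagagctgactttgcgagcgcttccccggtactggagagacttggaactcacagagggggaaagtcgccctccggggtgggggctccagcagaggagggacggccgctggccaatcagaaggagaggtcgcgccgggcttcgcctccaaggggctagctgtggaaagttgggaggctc
Fbln1: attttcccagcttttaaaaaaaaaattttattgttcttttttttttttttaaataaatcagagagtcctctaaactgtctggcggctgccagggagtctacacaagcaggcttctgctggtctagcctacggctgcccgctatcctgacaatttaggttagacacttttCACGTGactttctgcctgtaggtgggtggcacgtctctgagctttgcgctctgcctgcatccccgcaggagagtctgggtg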

How the data were processed

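Libraries were made by 5′Tag-seq on an Ion Torrent sequencer from sorted EGFP+ and EGFP- cells (3 libraries each). The authors trimmed reads with Cutadapt 1.18, used Bowtie2 2.2.5 to map them, in 1 orientation, against RNA of RefSeq (mm10), and deposited the counts of tags per gene, which are raw and not normalized; how tags matching more than 1 gene were handled is not given in the sources used here. PCR copies were not marked, so the limit of 3 tags covers counting error only. Totals were 1022851 to 1169817 tags per library. The methods, run by the authors in R 3.5.1, describe genes at 10 tags or more as lowly expressed and left out. This was read here in reverse, with 10 tags as the number needed to keep a gene.

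Genes were kept if 3 or more libraries reached 10 tags, and these 9334 genes were tested in R 4.3.3 with edgeR 4.0.16 (TMM, glmQLFit, glmQLFTest, Benjamini-Hochberg adjustment over all tested genes), after a test on simulated data. The SE of a log2 fold change is its size divided by the square root of the F statistic. A gene was called at an adjusted p under 0.05 with a fold change over 2. The members and gene lists were chosen with earlier results of these data known, so the members are described without p and the lists, as groups, by counts and medians. The adjusted p of single list genes come from the fit over all genes and are not independent support.

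Replicate numbers come from the labels, and the methods name mice as the replicates. Deviations of same-numbered libraries from their group means correlated at r = 0.231, 0.209 and 0.270 over 5064 genes (30 tags or more on average), and the numbers were taken to pair the libraries by mouse. Alternatives were RLE, library size alone, iterative TMM (3 iterations, a first-round adjusted p of 0.1, at least 5% of genes left out), DESeq2 1.42.0, no filter, 10 tags in all 6 libraries, the replicate block, no fold-change threshold and each library left out in turn; the last was also run on the 9334 genes of the 6-library filter, which was chosen after seeing the data.

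Named genes are the 10 members, the called genes of each list up to the 5 with the smallest p per direction, the most abundant gene of each list, marker lists by sum with their most abundant gene and those at 0, *Il11*, and for the most abundant hemicentin, fibulin and elastic fibre gene the 3 most alike genes among those with 30 tags or more on average. Of the marker lists, 1 is not reported here. Positions come from GENCODE mouse release 21 (GRCm38, the assembly of mm10), and promoters from RefSeq.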

Additional observations from a re-analysis of the deposited data

How the results depend on the processing

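*Hmcn2*, chosen with values of this comparison, is described only, and had a log2 fold change of -3.21 to -2.94 in the 19 settings that refit it. In these settings the lowest and highest values were -0.90 and -0.53 for *Fbln1*, -0.76 and -0.23 for *Fbln5*, -0.68 and -0.26 for *Efemp1*, -0.27 and -0.091 for *Fbn1*, 0.050 and 0.29 for *Fbln2*, 0.25 and 0.67 for *Efemp2*, 0.63 and 0.93 for *Eln* and 0.62 and 0.89 for *Emilin1*, each reached with 1 library left out, while *Hmcn1*, fitted in 15, was above 0 in 2. The replicate block, which keeps the assumed pairing of same-numbered libraries, called 337 genes higher and 648 lower against 321 and 595. It changed no call of a named gene or count of a list.

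Scaling by library size alone called 1 crosslinking gene higher and 1 gene of the protease list lower. Without a filter, 2 protease genes were called higher. With 10 tags needed in all 6 libraries, fewer genes were tested, and 256 genes, 2 microfibril genes and 0 relatives were called lower. Without a fold-change threshold, 638 genes, 2 of the 10 members and 3 protease genes were higher. In the same setting 2 members and 1 gene of the protease list, the cathepsin inhibitor *Cst3*, were lower.

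With each library left out in turn and the filter run again, the lowest and highest counts were 341 and 579 for all genes called lower. They were 0 and 1 for relatives lower, 1 and 2 for crosslinking genes higher and 3 and 6 for basement membrane and matrix genes higher. For the protease list with its inhibitor they were 1 and 1 for genes higher and 0 and 1 for genes lower. All genes called lower fell to 341 without IL-11- replicate 1 and 355 without IL-11- replicate 2, when 8855 and 8837 genes were tested, and were 483 and 508 on the same 9334 genes. On these 9334 genes, relatives lower fell to 0 and protease genes higher rose to 2 without IL-11- replicate 2. Crosslinking genes higher fell to 1 in 3 of 6 fits, and genes of the protease list with its inhibitor called lower rose to 1 in 2. Basement membrane and matrix genes higher fell to 3 without IL-11+ replicate 1. *Fbln7* failed the filter without any 1 of the IL-11- libraries. *Mfap4* changed sign without IL-11+ replicate 3, to 0.044, or 0.040 with the 6-library filter, and was lowest, at -0.95, without IL-11+ replicate 2. Where no construction of a setting shows it, the cause was not tested. The depth limits the values of *Hmcn1* and *Fbln7*, which had at most 25 tags in a library.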

Other observations

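*Mmp12*, the macrophage elastase, was too low for the filter and was chosen after its values were seen. It had 0 tags in all 3 IL-11- libraries and 9, 4 and 2 tags in the IL-11+ libraries. Without a filter on low counts it was the additional protease gene called higher. *Mmp9*, another protease that cleaves elastin, likewise had 0 tags in the IL-11- libraries and 1, 1 and 2 in the IL-11+ libraries, which is under the limit of 3 tags.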
